A study of Homo sapiens with 14 samples.

Results

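The miR-17-92 and miR-106b-25 clusters are 2 paralogous groups of microRNAs (miRNAs), each cut from a single primary transcript. The mature miRNAs described here are 10 of the 2588 rows that each count table held, and they were taken from a list of names: 6 products of miR-17-92 (hsa-miR-17-5p, hsa-miR-17-3p, hsa-miR-18a-5p, hsa-miR-19a-3p, hsa-miR-19b-3p and hsa-miR-20a-5p) and 4 products of miR-106b-25 (hsa-miR-106b-5p, hsa-miR-106b-3p, hsa-miR-93-5p and hsa-miR-93-3p). All 10 were found in both tables and all passed the filter on low counts in both assays. The remaining products of the same transcripts, miR-92a and miR-25 among them, are given briefly for comparison.

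N7-methylguanosine (m7G), a guanosine that carries a methyl group and a positive charge, was enriched by 2 methods from total RNA of A549, a human lung adenocarcinoma cell line, before small RNA sequencing. In BoRed-seq, sodium borohydride and low pH turn an m7G into a site without a base, a biotin probe binds that site, and streptavidin beads collect the RNA. The 2 Red libraries came from reduced RNA and the 2 Ctrl libraries from non-reduced RNA that received acid-quenched borohydride. In m7G-RIP-seq an antibody against m7G gave 5 IP libraries, which were set against 5 Input libraries. Per the study's protocol, Ctrl RNA also went through the low-pH and probe steps, whereas Input was set aside before the antibody. The baselines of the assays therefore differ in kind. All 14 libraries came from this 1 untransfected line, and no label tied a replicate to a separate culture, so p-values measure only the spread between these libraries.

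Primary miRNA transcripts are cut to hairpins by Drosha and then to short duplexes by Dicer, and one strand or the other (the 5p or 3p arm) is kept in an Argonaute protein. The seed, near the 5′ end of the mature strand, sets which mRNAs are repressed. The miR-17-92 transcript is induced by MYC and is known as an oncogenic cluster. Its miR-17 family represses the cell-cycle inhibitor CDKN1A and E2F transcription factors. The miR-106b-25 cluster lies inside MCM7, a gene of the DNA replication helicase, and is made along with it.

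In the RefSeq sequences (GRCh38.p14), the members of miR-17-92 lie on the plus strand of chromosome 13 in an exon of the non-coding host gene MIR17HG, and the mature products of its 6 hairpins span chr13:91350618-91351382. Those of miR-106b-25 lie on the minus strand of chromosome 7 in an intron of MCM7, and the mature products of its 3 hairpins span chr7:100093571-100094063. The 10 sequences are printed because members that share a seed or a hairpin are compared throughout. Capitals mark the seed, bases 2 to 8 from the 5′ end, and the members carried 6 seeds. The miR-17 seed was shared by 4 members from both transcripts.

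miR-17-5p: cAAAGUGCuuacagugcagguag
miR-20a-5p: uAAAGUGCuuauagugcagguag
miR-93-5p: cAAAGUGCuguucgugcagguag
miR-106b-5p: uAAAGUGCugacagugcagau

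The miR-19 seed was shared by 2 members, which differed from each other at 1 of 23 bases.

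miR-19a-3p: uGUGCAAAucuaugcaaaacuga
miR-19b-3p: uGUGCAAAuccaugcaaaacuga

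The other 4 members each had a seed of their own. Of these, miR-17-3p, miR-106b-3p and miR-93-3p are the 3p arms that face miR-17-5p, miR-106b-5p and miR-93-5p in their hairpins.

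miR-18a-5p: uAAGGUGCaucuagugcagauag
miR-17-3p: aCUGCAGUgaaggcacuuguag
miR-106b-3p: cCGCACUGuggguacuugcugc
miR-93-3p: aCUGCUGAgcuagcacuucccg

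Several members have near copies, so the division of their counts is uncertain. miR-17-5p differs from miR-106a-5p, and miR-18a-5p from miR-18b-5p, at 1 base each. miR-17-5p and miR-20a-5p differ at 2 bases. miR-19b-3p is made from identical mature sequence at a hairpin on chromosome 13 and another on chromosome X (chrX:134169683-134169705, minus strand), which the counts cannot separate.

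The libraries differed widely in depth. Counts of all mature miRNAs summed to 242085 and 277498 in Red, 5874405 and 4678102 in Ctrl, 2854811 to 6452759 in IP and 7097379 to 14874685 in Input. Together the 10 members took 0.162% and 0.177% of the counts in Ctrl, 0.174% and 0.255% in Red, 0.313% to 0.483% in Input and 0.223% to 0.398% in IP. Of the epithelial miRNAs used to check the line, miR-200b-3p stood at 141 and 170 counts per 1000000 counts of the library (CPM) in Ctrl and 258 to 850 CPM in Input. miR-141-3p was nearly absent, at 0 to 0.342 CPM in Input. The 5 blood-cell miRNAs examined stayed at or below 0.768 CPM in Ctrl and Input (the top value was that of miR-451a), and the liver miRNA miR-122-5p was at 0 in each of them. Among the 3 muscle miRNAs, miR-1-3p reached 5.92 CPM, miR-133a-3p at most 0.282 CPM and miR-206 was at 0. Input and IP replicates 1 to 3 stood apart from replicates 4 and 5 on the second principal component. No label describes the 2 sets, and values within each are given where they touch a result.

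Levels were compared between miRNAs in CPM divided by the length of the mature miRNA. In Input, miR-106b-3p (mean 58.0 CPM per base), miR-20a-5p (45.3 CPM per base) and miR-93-5p (44.2 CPM per base) were the most abundant members, and their ranges over libraries overlapped. miR-17-5p followed at 15.4 CPM per base and overlapped no neighbour in this order. miR-19b-3p (3.19), miR-106b-5p (2.75), miR-93-3p (1.37), miR-18a-5p (0.721) and miR-19a-3p (0.455 CPM per base) came next, each range overlapping that of its neighbour. miR-17-3p, at 0.147 CPM per base, lay below all of them. In Ctrl, miR-20a-5p (mean 460 CPM) and miR-93-5p (453 CPM), which are both 23 bases long, led with overlapping ranges, followed by miR-19b-3p (9.96 CPM per base) and miR-106b-3p (9.01 CPM per base).

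Most members were depleted from IP, and fewer were called in BoRed-seq. In m7G-RIP-seq, 9 of the 10 members were depleted from IP, where 29.9% of all 670 miRNAs tested were depleted, and 1 member, miR-106b-3p, was enriched, where 27.3% of all were. In BoRed-seq, 4 of the 10 were depleted from Red (miR-18a-5p, miR-19b-3p, miR-20a-5p and miR-106b-5p), where 27.2% of all 400 miRNAs tested were depleted, and 0 were enriched, where 32.2% of all were. The median log2 enrichment of the members was −2.67 in m7G-RIP-seq, against 0.02 over all miRNAs, and −0.74 in BoRed-seq, against −0.32 over all. In each assay 9 of the 10 values were below 0, as were 49.4% of all values in m7G-RIP-seq and 55.0% in BoRed-seq. These counts describe the list. Only 5 members (miR-17-5p, miR-20a-5p, miR-106b-3p, miR-93-5p, miR-93-3p) reached 10 counts in every m7G-RIP-seq library, and 5 (miR-17-5p, miR-20a-5p, miR-106b-5p, miR-106b-3p, miR-93-5p) in every BoRed-seq library. The other members entered on the counts of Input or Ctrl, the side on which they were high. An enrichment is measured from the middle of all miRNAs in its assay. Scaling by total counts raised the median over all miRNAs by 0.36 in m7G-RIP-seq, where no member changed sign, and by 1.08 in BoRed-seq, where miR-17-5p, miR-17-3p, miR-20a-5p, miR-93-5p and miR-93-3p moved above 0.

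**Figure D1:**
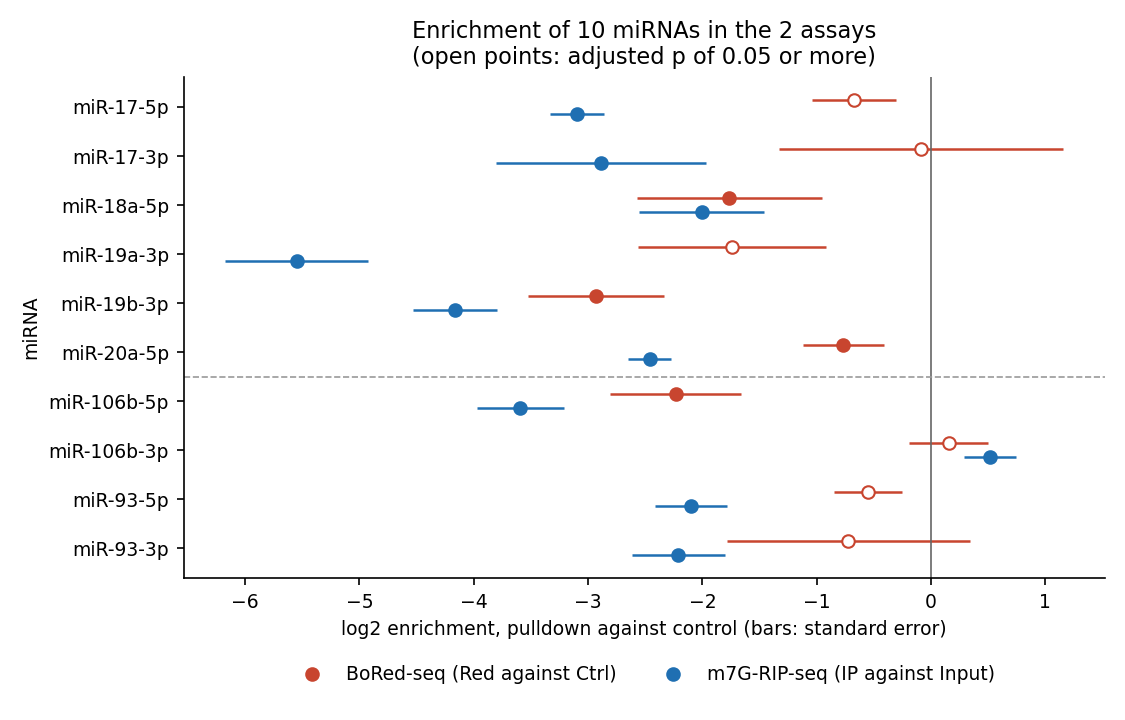
Log2 enrichment of each member (rows) in BoRed-seq (Red against Ctrl, 2 libraries each) and m7G-RIP-seq (IP against Input, 5 each), with standard errors as bars. Open points have an adjusted p of 0.05 or more. In m7G-RIP-seq 9 members lie between −5.55 and −2.01 and miR-106b-3p alone lies above 0. The BoRed-seq values of miR-17-5p, miR-17-3p, miR-20a-5p, miR-93-5p and miR-93-3p turn positive when libraries are scaled by total counts.

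The 4 members with the miR-17 seed were depleted from IP without exception. Normalized counts of miR-17-5p, the member that names the family, were 2186, 2332, 2895, 3181 and 3680 in Input replicates 1 to 5. They were 371, 316, 428, 337 and 221 in IP. Every IP library lay below every Input library, and the log2 enrichment was −3.10 ± 0.23 (SE, n = 5 per group; DESeq2 adjusted p = 1.80e-38), an 8.55-fold lower level. Depletion was stronger in replicates 4 and 5 (−3.64) than in 1 to 3 (−2.78), and this difference of −0.87 passed its own test (interaction, adjusted p = 0.0170). In BoRed-seq miR-17-5p had 234 and 287 normalized counts in Ctrl and 174 and 154 in Red. The groups did not overlap, yet the log2 enrichment of −0.67 ± 0.37 (SE, n = 2 per group) was not called by DESeq2 (adjusted p = 0.105).

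miR-20a-5p, which represses many of the same mRNAs as miR-17-5p, was the most abundant member of the miR-17-92 transcript. Its normalized counts were 6463, 7985, 8891, 8928 and 10014 in Input and 1546, 1199, 1370, 1807 and 1761 in IP. The groups lay well apart and each was tight, and miR-20a-5p was depleted by a log2 of −2.46 ± 0.19 (SE, n = 5 per group; DESeq2 adjusted p = 7.77e-38). The value was alike in both sets of replicates, at −2.54 in 1 to 3 and −2.44 in 4 and 5. In BoRed-seq miR-20a-5p had 765 and 782 normalized counts in Ctrl and 330 and 575 in Red. Both Red libraries were lower than both Ctrl libraries, and the log2 enrichment was −0.77 ± 0.35 (SE, n = 2 per group; DESeq2 adjusted p = 0.0492). That call was at the edge of the threshold. It was lost without Red replicate 1 (−0.28, adjusted p = 0.612), without Ctrl replicate 1 (adjusted p = 0.146) and without Ctrl replicate 2 (adjusted p = 0.161), and the sign turned under total-count scaling (0.40, adjusted p = 0.442).

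miR-93-5p, the product of miR-106b-25 that shares this seed, had values near those of miR-20a-5p. Its normalized counts in Input were 5154, 6092 and 6670 in replicates 1 to 3 and 11088 and 11609 in replicates 4 and 5. In IP they were 1358, 1505 and 1484, then 2827 and 2301. Replicates 4 and 5 were higher in both groups, so the enrichment hardly moved between the sets (−2.08 and −2.18). Over all libraries, with no overlap between the groups, miR-93-5p was depleted by a log2 of −2.10 ± 0.32 (SE, n = 5 per group; DESeq2 adjusted p = 1.89e-10). In BoRed-seq the normalized counts were 774 and 747 in Ctrl against 563 and 480 in Red, and the log2 enrichment of −0.55 ± 0.30 (SE, n = 2 per group) was not called by DESeq2 (adjusted p = 0.101).

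miR-106b-5p had the lowest fitted log2 enrichment of the 4 in each assay. The ratio of miR-17-5p to miR-106b-5p was not called different between Input and IP (difference 0.70, exact permutation p = 0.190, adjusted p = 0.248 over the 25 pairs compared), and in BoRed-seq the fitted differences from miR-17-5p, miR-20a-5p and miR-93-5p were not called either (z test on the DESeq2 fit, adjusted p = 0.106, 0.119 and 0.0553). Its normalized counts were 408, 445, 398, 511 and 574 in Input. In IP they were 7.91, 49.2, 63.2, 36.5 and 39.3, with IP replicate 1 far below the other IP libraries. The groups did not overlap, and the log2 enrichment was −3.59 ± 0.38 (SE, n = 5 per group; DESeq2 adjusted p = 9.05e-20), a 12.1-fold lower level. In BoRed-seq the Ctrl libraries disagreed, at 128 and 342 normalized counts, and both lay above the Red libraries at 37.0 and 61.2. The log2 enrichment of miR-106b-5p was −2.23 ± 0.57 (SE, n = 2 per group; DESeq2 adjusted p = 0.000236). Without Ctrl replicate 2, the higher of the pair, the value was −1.41 and the call was lost (adjusted p = 0.166).

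The miR-19 pair had the lowest values of the list in m7G-RIP-seq. Normalized counts of miR-19b-3p were 476, 575, 629, 590 and 710 in Input and 10.6, 44.3, 25.3, 58.8 and 25.4 in IP. No IP library came near an Input library, and the log2 enrichment was −4.16 ± 0.37 (SE, n = 5 per group; DESeq2 adjusted p = 1.68e-28), a 17.9-fold lower level. miR-19a-3p had 86, 149, 113, 121 and 152 raw counts in Input and 3, 0, 0, 2 and 2 in IP. With so few IP counts its fold is given from the summed counts: 621 in Input against 7 in IP, scaled to library size, made miR-19a-3p 46.0-fold lower (95% counting interval 22.2 to 114.8). The fitted log2 enrichment was −5.55 ± 0.62 (SE, n = 5 per group; DESeq2 adjusted p = 6.49e-18).

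In BoRed-seq miR-19b-3p had 258 and 521 normalized counts in Ctrl and 14.8 and 83.2 in Red. The libraries of each group differed severalfold, but the groups did not overlap. Its log2 enrichment of −2.93 ± 0.59 (SE, n = 2 per group; DESeq2 adjusted p = 2.41e-06) was the lowest BoRed-seq value of the 10 members. miR-19b-3p was also the 1 member still called depleted under total-count scaling (−1.70, adjusted p = 0.0146). miR-19a-3p had 36.8 and 43.5 normalized counts in Ctrl and 14.8 and 9.79 in Red, the latter from 4 raw counts in each library. Its log2 enrichment of −1.74 ± 0.82 (SE, n = 2 per group) just missed the threshold (DESeq2 adjusted p = 0.0569).

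miR-18a-5p, a product of miR-17-92 with a seed of its own, was sparser. Its normalized counts were 145, 201, 134, 121 and 81.6 in Input and 5.28, 19.7, 52.7, 21.3 and 72.3 in IP. IP replicate 5 came close to Input replicate 5 without overlap between the groups. miR-18a-5p was depleted by a log2 of −2.01 ± 0.55 (SE, n = 5 per group; DESeq2 adjusted p = 0.000643). The value was −2.71 in replicates 1 to 3 and −1.17 in replicates 4 and 5, where it was not called (adjusted p = 0.0768). In BoRed-seq miR-18a-5p had 32.9 and 58.0 normalized counts in Ctrl and 14.8 and 12.2 in Red, from 4 and 5 raw counts. The log2 enrichment of −1.76 ± 0.81 (SE, n = 2 per group; DESeq2 adjusted p = 0.0492) passed the threshold narrowly. Removing any 1 of the 4 libraries ended that call (adjusted p 0.153 to 0.480), and so did total-count scaling (adjusted p = 0.563).

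The 3p arms split. miR-106b-3p was the only member enriched in either assay. Its normalized counts in Input were 10654, 9828, 10661, 10263 and 10486, the tightest Input group of any member. In IP they were 11777, 11314 and 11023 in replicates 1 to 3 and 20834 and 19384 in replicates 4 and 5. All IP libraries lay above all Input libraries, but the first 3 only slightly. The log2 enrichment of miR-106b-3p was 0.52 ± 0.23 (SE, n = 5 per group; DESeq2 adjusted p = 0.0430). It was 0.09 in replicates 1 to 3, not called (adjusted p = 0.489), and 0.92 in replicates 4 and 5 (adjusted p = 3.94e-13), and the difference between the sets, 0.82, passed its own test (interaction, adjusted p = 2.10e-08). The 2 sets of replicates differed in this way for 131 of 488 miRNAs. The call of miR-106b-3p was also lost when any Input library, or IP replicate 4 or 5, was left out (adjusted p 0.0783 to 0.130). In BoRed-seq miR-106b-3p had 384 and 279 normalized counts in Ctrl and 400 and 340 in Red. The groups overlapped, and the log2 enrichment was 0.16 ± 0.34 (SE, n = 2 per group; DESeq2 adjusted p = 0.715), which rose to 1.26 under total-count scaling (adjusted p = 0.00299).

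miR-93-3p and miR-17-3p were scarce arms and were depleted from IP. Normalized counts of miR-93-3p were 147, 151, 189, 367 and 346 in Input and 21.1, 45.5, 50.6, 66.9 and 74.9 in IP. Replicates 4 and 5 were the highest in both groups, as they were for its partner arm, and the groups did not overlap. Its log2 enrichment was −2.21 ± 0.41 (SE, n = 5 per group; DESeq2 adjusted p = 2.87e-07). miR-17-3p had 28, 40, 50, 26 and 46 raw counts in Input and 0, 1, 0, 1 and 12 in IP. The single IP library with more than 1 count, replicate 5, lay just below the lowest Input library on the normalized scale, at 15.2 against 16.2. The log2 enrichment of miR-17-3p was −2.89 ± 0.92 (SE, n = 5 per group; DESeq2 adjusted p = 0.00392), with −5.87 in replicates 1 to 3 and −1.41 in replicates 4 and 5, where it was not called (adjusted p = 0.345). In Red, miR-93-3p had 3 raw counts in each library and miR-17-3p had 1 and 5, so changes in BoRed-seq were not detectable at this depth. The summed counts made miR-93-3p 1.69-fold lower in Red, with a 95% counting interval of 0.747 to 4.71, and miR-17-3p 0.987-fold lower, with an interval of 0.426 to 2.81.

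**Figure D2:**
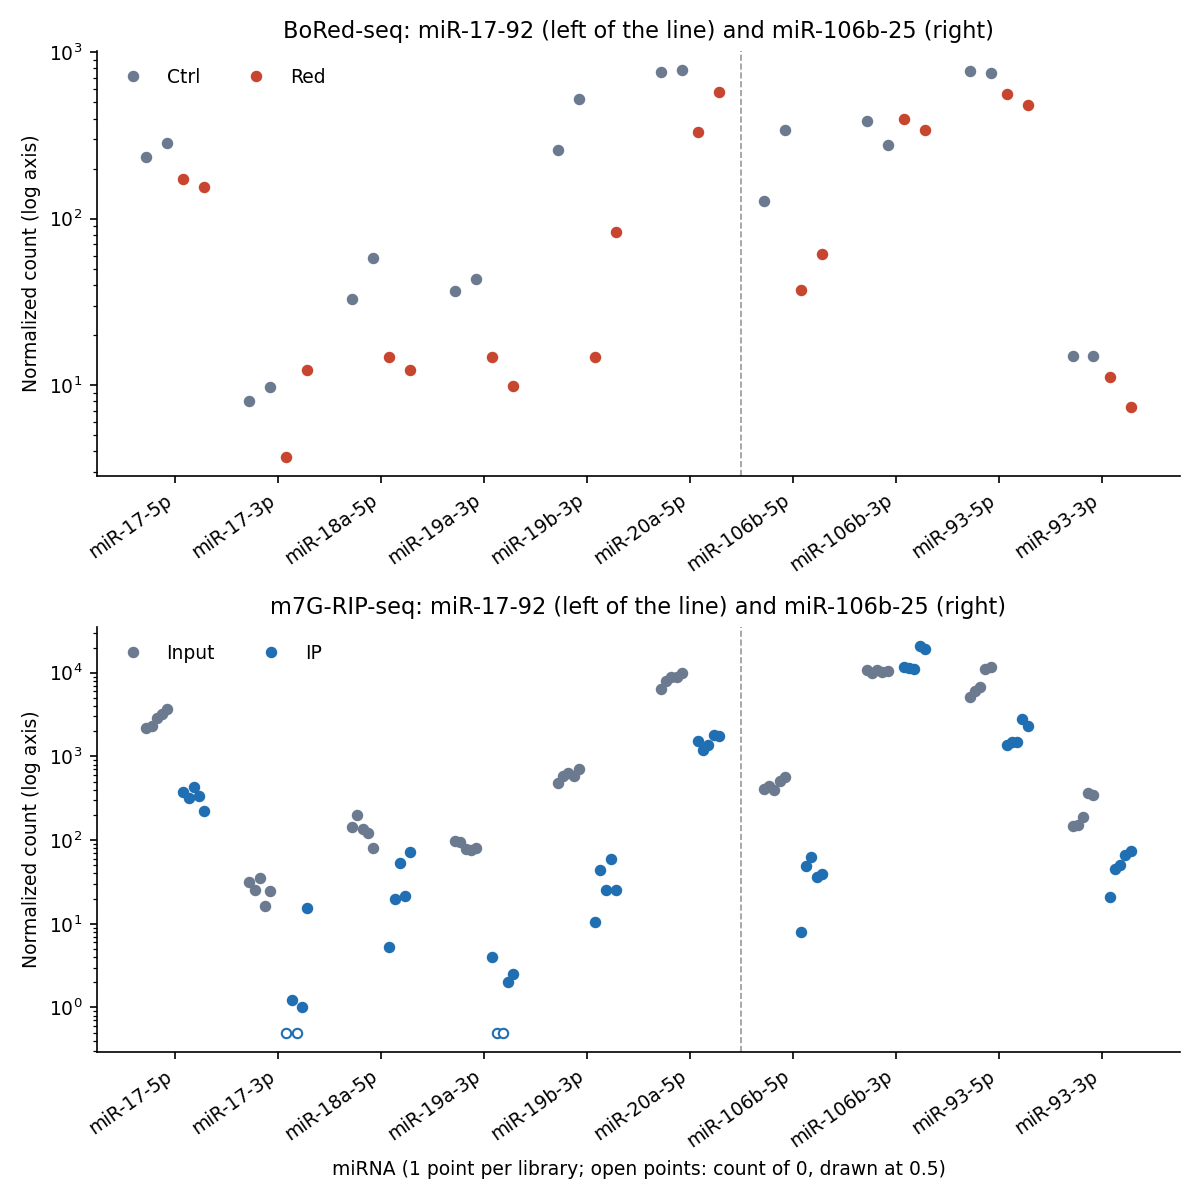
Normalized counts (log axis) of the 10 members, with 1 point per library, in BoRed-seq (top, 2 Ctrl and 2 Red) and m7G-RIP-seq (bottom, 5 Input and 5 IP, replicates 1 to 5 from left to right). Counts of 0 are open points drawn at 0.5. For miR-106b-3p the IP points of replicates 4 and 5, at 20834 and 19384, stand above the other 3, and for every other member the IP points lie below the Input points.

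Arms of the same hairpin leave the nucleus as part of 1 molecule, so their ratio within a library needs no scaling between libraries. For the miR-106b hairpin, the 5p arm took 25.1% and 55.1% of the counts of both arms in Ctrl and 8.47% and 15.2% in Red. It took 3.60% to 5.19% in Input and 0.0672% to 0.570% in IP. The 3p arm was thus the major arm in every m7G-RIP-seq library and gained further in IP, and the 2 Ctrl libraries did not agree on which arm was the major one. The log2 ratio of miR-106b-5p to miR-106b-3p averaged −4.49 ± 0.24 in Input and −8.75 ± 1.18 in IP (SD, n = 5 each), and all IP libraries lay below all Input libraries (difference −4.26, exact permutation p = 0.00794, adjusted p = 0.0198 over the 25 pairs compared). This is the smallest p that 5 libraries against 5 can give. In BoRed-seq the ratio of miR-106b-5p to miR-106b-3p averaged −0.64 ± 1.33 in Ctrl and −2.91 ± 0.65 in Red (SD, n = 2 each). The fitted difference was −2.39 ± 0.67 (SE; z test on the DESeq2 fit, adjusted p = 0.00851 over the 25 pairs). The call was lost without Ctrl replicate 2 (−1.31, adjusted p = 0.929), without Red replicate 1 (adjusted p = 0.266) and when the Ctrl counts were thinned to match the depth of Red (−2.24, adjusted p = 0.203).

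The arms of miR-93 had nearly the same proportions in all groups. miR-93-5p took 98.05% and 98.11% of the counts of both arms in Ctrl, 98.1% and 98.5% in Red, 96.8% to 97.6% in Input and 96.7% to 98.5% in IP. The log2 ratio of miR-93-5p to miR-93-3p was 5.12 ± 0.15 in Input and 5.23 ± 0.46 in IP (SD, n = 5 each), and the groups overlapped (difference 0.11, exact permutation p = 0.706). For miR-17, the 5p arm held 98.6% to 99.5% in Input and 93.5% to 100% in IP. The difference in the log2 ratio of miR-17-5p to miR-17-3p was 0.62 (exact permutation p = 0.556) with IP replicate 5 in the group, and 1.51 (adjusted p = 0.0496) without it.

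Members that share a seed did not all share a value. In the miR-17 seed family the loss ranged from −2.10 (miR-93-5p) to −3.59 (miR-106b-5p) in m7G-RIP-seq. Of the 4 members' summed counts, miR-93-5p took 35.4% to 46.8% in Input and 41.4% to 56.5% in IP, and miR-106b-5p took 2.11% to 2.87% in Input and 0.241% to 1.89% in IP. The log2 ratio of miR-106b-5p to miR-93-5p, which share transcript and seed, fell by 1.72 from Input to IP with no overlap between the groups (exact permutation p = 0.00794, adjusted p = 0.0198). The ratio of miR-17-5p to miR-20a-5p, which differ at 2 bases, changed by −0.64, from −1.58 ± 0.13 in Input to −2.21 ± 0.51 in IP (SD, n = 5 each; exact permutation p = 0.0159, adjusted p = 0.0305). For miR-17-5p and miR-20a-5p the groups overlapped, and the difference was −0.23 in replicates 1 to 3 and −1.24 in replicates 4 and 5.

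miR-20a-5p and miR-93-5p share a seed across the 2 transcripts, and their ratio was not called different between Input and IP. Their log2 ratio was 0.12 ± 0.35 in Input and −0.26 ± 0.31 in IP (SD, n = 5 each; difference −0.38, exact permutation p = 0.0952, adjusted p = 0.149). It ranged from −0.31 to 0.41 in Input and from −0.65 to 0.19 in IP. In both groups replicates 4 and 5 had the lowest ratios. For every replicate number the ratio was lower in IP than in Input, so a shift is not excluded. In BoRed-seq the ratio of miR-20a-5p to miR-93-5p was 0.02 ± 0.06 in Ctrl and −0.25 ± 0.73 in Red (SD, n = 2 each), and the fitted difference was −0.22 ± 0.46 (SE). A difference between the miR-19 pair was not detectable. The log2 ratio of miR-19a-3p to miR-19b-3p was −2.79 ± 0.34 in Input and −3.94 ± 1.86 in IP (SD, n = 5 each; exact permutation p = 0.198, adjusted p = 0.248), and the wide IP spread came with the 0 to 3 counts of miR-19a-3p.

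**Figure D3:**
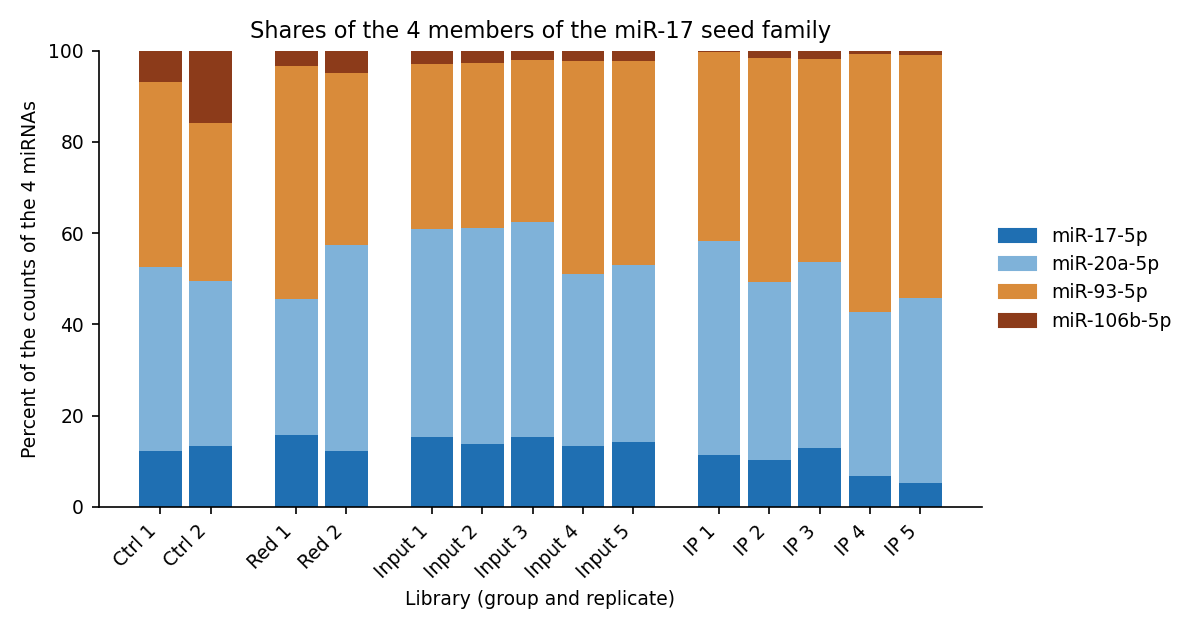
Share of each of the 4 miR-17 seed members in their summed counts, as stacked bars, 1 per library. miR-106b-5p takes 6.75% and 15.8% in Ctrl and at most 1.89% in IP, and miR-93-5p takes 41.4% to 56.5% in IP.

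Among the 6 members of the miR-17-92 transcript, miR-20a-5p took a larger share in IP than in Input and miR-19b-3p a smaller one. These shares leave out miR-92a-3p of the same transcript, whose normalized counts averaged 368292 in Input and 622106 in IP. The same mature sequence is also made from a hairpin on chromosome X, and the counts of miR-92a-3p cannot separate the sources. Of the 6 members' counts, miR-20a-5p took 68.6% to 71.2% in Input and 73.0% to 84.0% in IP, and miR-19b-3p took 4.57% to 5.13% in Input and 0.545% to 2.80% in IP. The log2 ratio of miR-19b-3p to miR-20a-5p was nearly constant in Input, at −3.82 ± 0.06, and was −5.71 ± 0.95 in IP (SD, n = 5 each; difference −1.89, exact permutation p = 0.00794, adjusted p = 0.0198). In BoRed-seq the fitted difference of miR-19b-3p and miR-20a-5p was −2.16 ± 0.69 (SE; z test on the DESeq2 fit, adjusted p = 0.0138). That call was lost without Ctrl replicate 1 (−2.57, adjusted p = 0.0632), without Ctrl replicate 2 (−1.60, adjusted p = 0.929), without Red replicate 1 (−1.79, adjusted p = 0.266) and after the same thinning of Ctrl (−1.90, adjusted p = 0.226). Shares within miR-106b-25 leave out miR-25-3p, at a mean of 22078 normalized counts in Input and 36527 in IP. Of the 4 members' counts, miR-106b-3p took 45.6% to 65.1% in Input and 87.3% to 89.5% in IP. miR-93-5p stood at 31.5% to 50.4% in Input and 10.3% to 11.9% in IP. The log2 ratio of miR-106b-3p to miR-93-5p changed by 2.54 (exact permutation p = 0.00794, adjusted p = 0.0198).

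**Figure D4:**
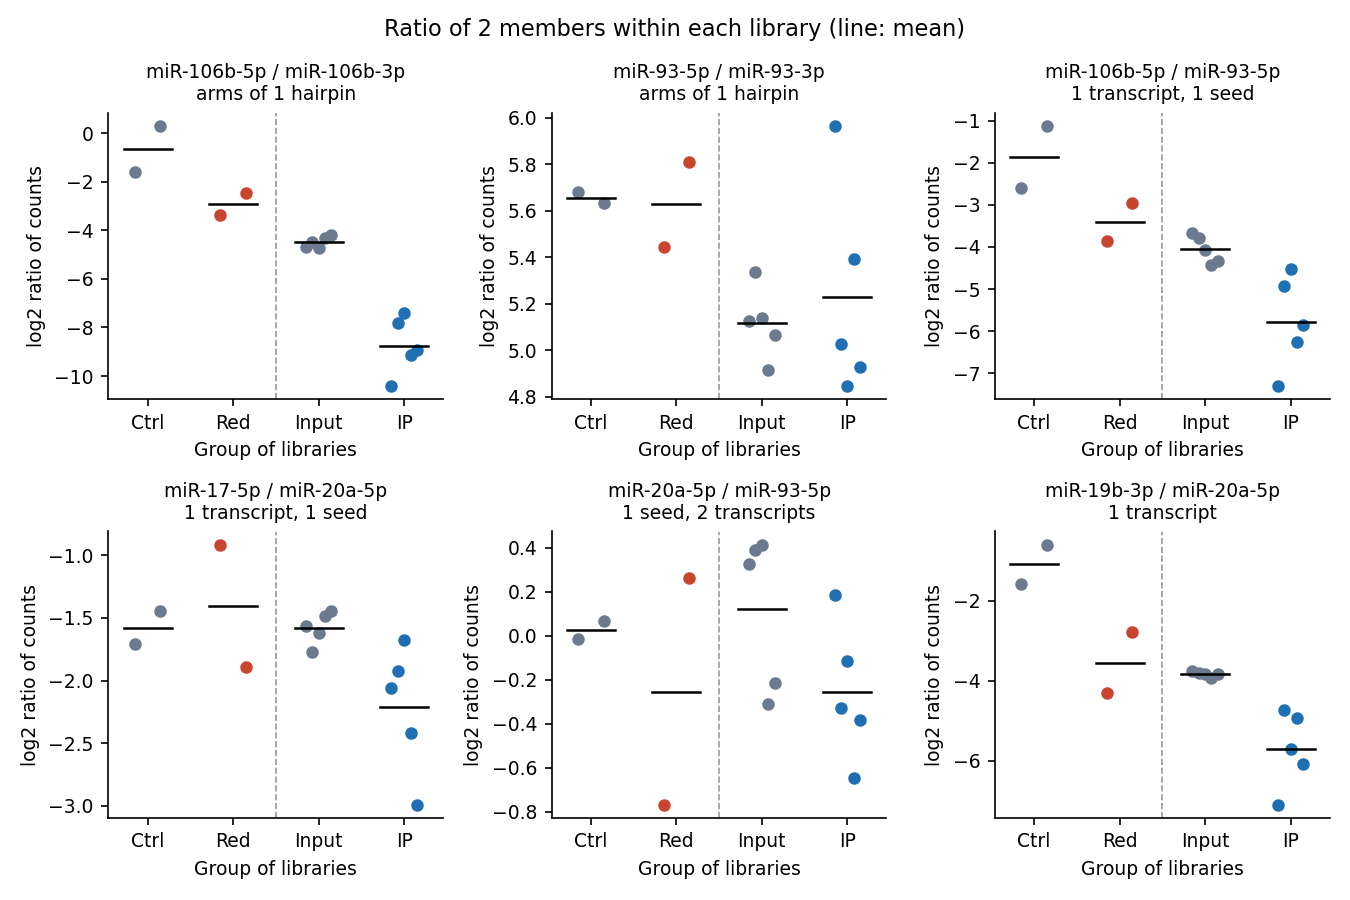
Log2 ratio of the counts of 2 members (0.5 added to each) within each library, for 6 pairs, with 1 point per library and the mean as a line. The ratio of miR-106b-5p to miR-106b-3p averages −4.49 in Input and −8.75 in IP, and that of miR-93-5p to miR-93-3p averages 5.12 and 5.23. Each panel has its own vertical axis.

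In all, 25 pairs were compared: 21 of one transcript and 7 of one seed, 3 of them both, with 3 pairs of arms among the former. In m7G-RIP-seq the ratio differed in 13 of the 25 by the exact permutation test after adjustment over the 25. This was 11 of the 21 pairs of one transcript and 4 of the 7 of one seed. The share of all miRNA pairs that this test would call was not computed, so these counts describe the 25 pairs only. Most of the 13 pairs hold miR-18a-5p, miR-19a-3p, miR-19b-3p or miR-106b-5p, which did not reach 10 counts in every IP library. The groups did not overlap in 10 of the 25, and 36.5% of all pairs of tested miRNAs did the same, a share close to that of the members. Since Input and IP replicates of the same number deviated together in part, a sign-flip test paired by number was also run. It called 0 of the 25 pairs, because 5 pairs of libraries cannot give a p below 0.0625. By direction alone, 14 of the 25 ratios moved the same way in 5 of 5 pairs of libraries. For these 14 too, no share over all miRNA pairs was computed. In BoRed-seq, 7 of the 25 pairs had a z test p under 0.05, against 53.5% of all pairs, and 3 remained after adjustment over the 25 (miR-106b-5p with miR-106b-3p, and miR-19b-3p with miR-17-5p and with miR-20a-5p). All 3 calls were lost without Ctrl replicate 2 and without Red replicate 1. No exact test on 2 against 2 libraries can go below p = 0.333.

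Each assay was set against its own kind of control. The chemistry and the antibody gave different values for some members, at a share not far above that of all miRNAs. The log2 enrichment was lower in m7G-RIP-seq than in BoRed-seq for 4 of the 10 members, where 29.4% of 384 miRNAs with values in both assays were lower. These were miR-17-5p (difference −2.43, z test adjusted p = 2.76e-07), miR-19a-3p (−3.81, adjusted p = 0.00121), miR-20a-5p (−1.69, adjusted p = 0.000134) and miR-93-5p (−1.55, adjusted p = 0.00172). Over all 384 miRNAs the median difference was −0.62 and 63.5% were below 0. Over the members the median was −1.52 and 9 of 10 were below 0. The values of miR-18a-5p were close, with a difference of −0.24 and a 95% interval of −2.16 to 1.67, and so were those of miR-106b-3p, with 0.36 and an interval of −0.45 to 1.17. For miR-93-5p the difference was not called by the interaction term of a single DESeq2 fit over all 14 libraries (−1.10, adjusted p = 0.0690). The call of miR-19a-3p was lost without Ctrl replicate 1 (adjusted p = 0.128) or Ctrl replicate 2 (adjusted p = 0.0583), and that of miR-20a-5p without Red replicate 2 (adjusted p = 0.0777). miR-19a-3p had 4 raw counts in each Red library and 0 to 3 in IP, and passed both filters only through Ctrl and Input. Its difference thus compares values near the floor.

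Products of these transcripts and of the third paralogue that are not members were also counted. Of 18 listed products of miR-17-92, miR-106b-25 and that paralogue, miR-106a-363, 8 passed the filter in each assay. In BoRed-seq 5 of these 8 were enriched and 0 depleted, where 32.2% and 27.2% of all miRNAs were. In m7G-RIP-seq 3 were enriched and 1 depleted, where 27.3% and 29.9% of all were. miR-92a-3p is the last miRNA of the miR-17-92 transcript and is also made from the paralogue on chromosome X. The log2 enrichment of miR-92a-3p was 1.44 in BoRed-seq (adjusted p = 1.36e-07) and 0.76 in m7G-RIP-seq (DESeq2 adjusted p = 4.00e-06). miR-25-3p, which shares the seed of miR-92a-3p, had 0.34 (adjusted p = 0.318) and 0.73 (adjusted p = 0.125). Its normalized counts in IP were 20970, 17673 and 16481 in replicates 1 to 3, against 17427, 20316 and 21233 in Input, and 67960 and 59553 in replicates 4 and 5, against 25228 and 26188. The IP libraries of replicates 4 and 5 thus lay above every Input library, and those of replicates 1 to 3 did not. The passenger arms miR-92a-1-5p (1.19, adjusted p = 1.76e-07) and miR-25-5p (1.13, adjusted p = 2.30e-07) were enriched in m7G-RIP-seq, and both also in BoRed-seq (miR-92a-1-5p 2.22, DESeq2 adjusted p = 0.00728; miR-25-5p 3.43, adjusted p = 1.19e-21). The BoRed-seq value of miR-92a-1-5p came from 38 and 17 raw counts in Ctrl and 13 in each Red library. miR-18a-3p, the arm that faces miR-18a-5p, had −0.11 in m7G-RIP-seq (adjusted p = 0.711). Of the counts of both miR-18a arms, miR-18a-5p took 20.5% to 50.6% in Input and 2.06% to 22.9% in IP.

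Of the miRNAs in the tables, 8 carry the miR-17 seed. Besides the 4 members, miR-106a-5p and miR-20b-5p passed the filter, and miR-519d-3p and miR-526b-3p had 1 and 0 summed counts in Input. miR-106a-5p, which differs from miR-17-5p at 1 base, had a log2 enrichment of −3.57 in m7G-RIP-seq (DESeq2 adjusted p = 9.48e-15), near that of miR-17-5p, and 0.09 in BoRed-seq (adjusted p = 0.898). The m7G-RIP-seq value of miR-106a-5p rests on 3, 4, 7, 10 and 3 raw counts in IP, near the floor, against 67 to 198 in Input. miR-106a-5p thus passed that filter through Input, the side on which it was high. miR-20b-5p differs from miR-20a-5p at 2 bases and was enriched in BoRed-seq (4.17, DESeq2 adjusted p = 8.56e-08). That value came from only 11 raw counts in each Ctrl library and 10 and 36 in Red. The m7G-RIP-seq value of miR-20b-5p, −0.89, was not called (adjusted p = 0.440). Its raw counts in m7G-RIP-seq were 1, 2 and 0 in IP replicates 1 to 3, against 19, 43 and 58 in Input, and 50 and 42 in IP replicates 4 and 5, against 77 and 120 in Input. Its share of the summed counts of miR-20a-5p and miR-20b-5p was 0.396% and 0.520% in Ctrl and 10.1% and 13.3% in Red.

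For the 7 members with a mean of at least 100 normalized counts in m7G-RIP-seq, the most similar of 312 other miRNAs was found by the root mean square difference of centred log2 counts over the 10 libraries. miR-106b-3p was closest to miR-501-3p, at 0.0792, and miR-93-5p to miR-221-3p, at 0.154. miR-17-5p was closest to miR-425-5p (0.214), miR-20a-5p to miR-331-3p (0.263) and miR-93-3p to miR-411-5p (0.298), with miR-93-5p second (0.306). miR-106b-5p was closest to miR-15b-3p (0.430) and miR-19b-3p to miR-455-5p (0.496). No member had another member as its nearest profile. With 312 candidates and few of them members, this describes the list only, and the rate for other lists was not computed.

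Base composition ran along with these values. miR-106b-3p had the highest share of G and C (63.6%, with a run of 3 G) and the highest enrichment in both assays. miR-19a-3p (34.8%) and miR-19b-3p (39.1%) had the lowest and 4 G each, and they had the lowest m7G-RIP-seq values. miR-20a-5p, also at 39.1% but with 7 G, was depleted less. Over the 10 members the rank correlation of G and C percent with log2 enrichment was 0.748 in m7G-RIP-seq and 0.760 in BoRed-seq. Over all miRNAs with a sequence it was 0.339 (n = 602) and 0.350 (n = 355). With the percent of G alone it was 0.698 and 0.772 over the members, and 0.449 and 0.382 over all. These points share libraries and near-identical sequences and are given as a description, and the part of base composition in the members' values was not tested.

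**Figure D5:**
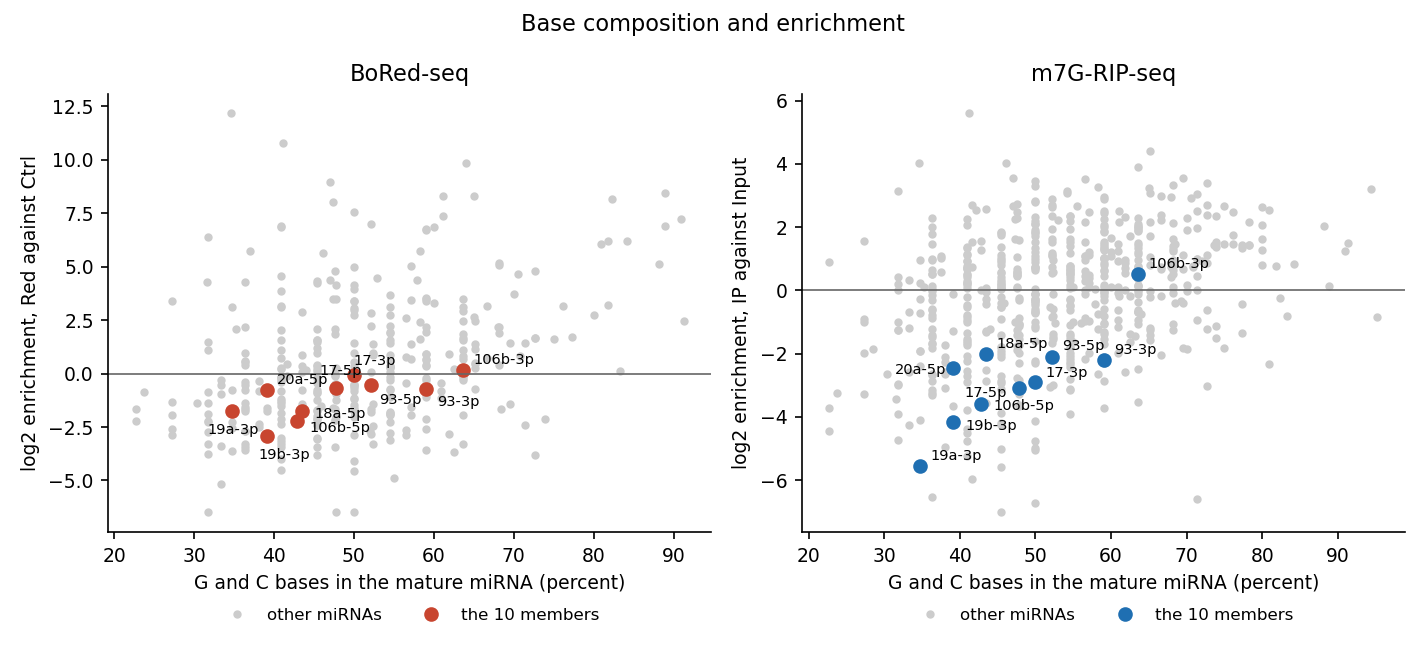
Percent of G and C bases in the mature miRNA (horizontal) against log2 enrichment (vertical) in BoRed-seq (left) and m7G-RIP-seq (right), with the 10 members coloured and all other tested miRNAs with a sequence in grey. In m7G-RIP-seq the members run from miR-19a-3p (34.8%, −5.55) to miR-106b-3p (63.6%, 0.52). In BoRed-seq, miR-17-5p, miR-17-3p, miR-20a-5p, miR-93-5p and miR-93-3p lie above 0 under total-count scaling.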

How the data were processed

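Each assay had its own deposited table, which held unnormalized read counts of mature miRNAs. Per the study's methods, the authors trimmed adaptors with Trimmomatic, mapped reads to hg38 with STAR (the submitters' processing notes name Bowtie2 instead) and counted reads over miRBase mature miRNAs with featureCounts. Reads that fitted several loci were kept up to a limit, so near-identical miRNAs share an uncertain part of their counts. Replicates were not pooled, and 0 count columns matched no sample.

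DESeq2 1.42.0 (R 4.3.3) was fitted to these counts without covariates, once per assay, and its Wald test compared Red with Ctrl and IP with Input. A miRNA entered if 2 or more BoRed-seq libraries, or 5 or more m7G-RIP-seq libraries, held 10 counts or more. Size factors were medians of ratios and log2 enrichments were left unshrunken. Benjamini-Hochberg adjustment ran over all miRNAs tested, and calls were made at an adjusted p under 0.05. Normalized counts are counts divided by size factors, and CPM is per 1000000 counts of all mature miRNAs. A two-sided z test on both standard errors compared the assays. Pairs were compared by two-sided exact permutation tests of log2 count ratios with 0.5 added (m7G-RIP-seq, scipy 1.17.1) or z tests on the DESeq2 fit (BoRed-seq). Counting intervals are 95% exact intervals of summed counts and cover counting error only, as the tables hold no molecular identifiers.

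The fit was tested on simulated data first. The members and lists were chosen with earlier results of these data known. Named were all members, the listed other products of the 3 transcripts that averaged 100 or more normalized counts in either assay, miRNAs sharing a member's seed, and nearest profiles. Sequences are from RefSeq (GRCh38.p14) and matched for all 10 members. Replicate numbers come from the labels. Deviations of Input and IP libraries with the same number correlated at 0.146 to 0.387. Libraries of the same number were treated as paired only in the replicate block and the sign-flip test. The main tests used no pairing. The same number gave the highest correlation for replicates 1, 3 and 5 but not for 2 and 4. Alternatives included edgeR 4.0.16, other scalings and filters, a replicate block, and leaving out each library.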

Additional observations from a re-analysis of the deposited data

Results flagged for a closer look

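Of 20 groups of member values tested for an outlying library (10 members in Input and in IP), 1 had one. The normalized count of miR-17-3p in IP replicate 5, 15.2, stood apart from the other 4 IP libraries, with a gap of 0.919 of the group's range. Chance gives such a value in about 1 in 20 groups.

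The IP effect of miR-17-5p and of miR-106b-3p differed between replicates 4 and 5 and replicates 1 to 3 by an interaction term of DESeq2. The difference was −0.87 (adjusted p = 0.0170) for miR-17-5p and 0.82 (adjusted p = 2.10e-08) for miR-106b-3p. Of all 488 miRNAs with an adjusted p for this term, 131 differed.

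The log2 enrichment in m7G-RIP-seq was below that in BoRed-seq by a z test for 4 members, as it was for 29.4% of the 384 miRNAs tested in both assays. The median difference over those 384 was −0.62. The differences were −2.43 (miR-17-5p), −3.81 (miR-19a-3p), −1.69 (miR-20a-5p) and −1.55 (miR-93-5p). For miR-19a-3p the pulldown side held 4 raw counts in each Red library and 0 to 3 in IP. The cause of these differences was not tested.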

How the results depend on the processing

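The 9 members depleted in m7G-RIP-seq numbered 9 under each alternative run except 10 counts in every library (4, with fewer members tested) and replicates 4 and 5 alone (7). The replicate block changed no member's call there. The 1 enriched member became 0 with no count filter and in replicates 1 to 3 alone, and ranged from 0 to 1 when a library was left out. All depleted miRNAs numbered 200, and 116 with 10 counts in every library.

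BoRed-seq, with 2 libraries per group and shallow Red libraries, was less stable. The 4 depleted members became 7 with edgeR, 7 with TMM factors (which moved the median of all miRNAs by −0.19), 7 with no count filter, 2 with Ctrl thinned to the Red depth, 1 with total-count factors and 1 to 3 when a library was left out (1 without Ctrl replicate 2, 2 without Ctrl replicate 1 or Red replicate 1). The 0 enriched members became 1 with total-count factors (miR-106b-3p, 1.26, DESeq2 adjusted p = 0.00299). Under the same factors miR-20a-5p reversed to 0.40 and was not called (DESeq2 adjusted p = 0.442). All depleted miRNAs (109) numbered 167 with edgeR, 46 with total-count factors, 71 with 10 counts in every library, 63 with thinned Ctrl and 62 (without Ctrl replicate 2) to 86 with a library left out. All enriched (129) numbered 71 with 10 counts in every library. Total-count factors moved the enriched share of calls from 54.2% to 79.2% (from 47.8% to 58.6% in m7G-RIP-seq). Ctrl and Red numbers were not taken as paired: their deviations correlated at 0.110, and with the replicate block 3 members were depleted.

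The 4 members that differed between assays became 7 with total-count factors, 5 with the replicate block and 3 to 5 with a library left out. The 13 pairs of members in m7G-RIP-seq became 0 in replicates 1 to 3 alone, 0 in replicates 4 and 5 alone and 0 with the replicate block, where the smallest possible p was 0.1, 0.333 and 0.0625. They ranged from 10 to 16 with a library left out. The 3 BoRed-seq pairs became 0 with thinned Ctrl, 0 by the exact permutation test and 0 (without Ctrl replicate 2 or Red replicate 1) to 3 with a library left out. Where not stated, the cause was not tested.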
